A study of Mus musculus with 11 samples.

Results

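The 10 imprinted genes Dlk1, Meg3, Rian, Mirg, Nnat, Peg3, Peg10, Ndn, Snrpn and Zdbf2 were followed across 11 libraries of poly(A) RNA from the nucleus accumbens shell, a ventral division of the striatum. They were selected by name, from a list chosen with earlier results of these data known. All 10 were found among the 52550 genes of the count table and passed the filter on low values, as did 15353 genes in all. The first 4 lie together on chromosome 12 in the Dlk1-Dio3 imprinted domain, and the other 6 lie elsewhere. The punched tissue came from animals that were 8 weeks old and of the CBA/C57BL6J/129svEmx mixed strain. The series concerns reduced signalling through the retinoic acid receptor Rarb in R6/1 mice, which carry a fragment of human huntingtin with an expanded repeat. The labels name the animals (m44, m47 and so on) but not which alleles each carried, so the libraries were put in no groups, and relations over the 11 libraries take the place of comparisons between genotypes.

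Imprinted genes are transcribed from 1 parental copy, because DNA methylation laid down in the egg or the sperm marks the copies differently. In the Dlk1-Dio3 domain the protein-coding genes Dlk1, Rtl1 and Dio3 are expressed from the paternal copy, and the noncoding RNAs Meg3, Rian and Mirg from the maternal copy. Meg3 is a long noncoding RNA retained largely in the nucleus, Rian is a host of small nucleolar RNAs, and Mirg is a host of microRNAs. Nnat, Peg3, Peg10, Ndn, Snrpn and Zdbf2 are paternally expressed. Many imprinted genes are known to be abundant in the hypothalamus and other ventral forebrain regions. The counts do not separate the parental copies, so nothing here bears on imprinting itself.

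Dlk1 spans 109452823 to 109463336 on chromosome 12 (GENCODE M21, mm10), Meg3 109541001 to 109571726, Rian 109603940 to 109661716 and Mirg 109729764 to 109749460, all on the plus strand. In RefSeq coordinates 1 microRNA hairpin lies within the span of Meg3, 3 within that of Rian and 14 within that of Mirg, on the same strand. On chromosome 7, Peg3 spans 6703892 to 6730431 and Snrpn 59982495 to 60140219, both on the minus strand. Ndn spans 62346569 to 62350262 on the same chromosome, on the plus strand, in the same imprinted domain as Snrpn. Nnat lies at 157560078 to 157562522 on chromosome 2, Peg10 at 4747306 to 4760517 on chromosome 6 and Zdbf2 at 63273265 to 63314576 on chromosome 1, all on the plus strand.

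The promoter windows of the 4 genes of the domain are shown because these genes share a domain and were compared for whether they varied together. Each window of 300 bases runs from 250 bases before to 50 bases after a RefSeq start (GRCm38.p6, 5′ to 3′), and capitals mark CG dinucleotides, the sites of DNA methylation.
Dlk1 (chr12:109452573-109452872, plus strand): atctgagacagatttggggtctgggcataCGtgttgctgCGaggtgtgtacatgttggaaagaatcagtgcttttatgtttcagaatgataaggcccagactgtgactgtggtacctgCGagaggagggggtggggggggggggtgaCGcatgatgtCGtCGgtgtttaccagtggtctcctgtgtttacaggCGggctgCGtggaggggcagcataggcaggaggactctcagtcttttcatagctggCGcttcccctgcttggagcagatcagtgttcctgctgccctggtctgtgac
Meg3 (chr12:109540746-109541045, plus strand): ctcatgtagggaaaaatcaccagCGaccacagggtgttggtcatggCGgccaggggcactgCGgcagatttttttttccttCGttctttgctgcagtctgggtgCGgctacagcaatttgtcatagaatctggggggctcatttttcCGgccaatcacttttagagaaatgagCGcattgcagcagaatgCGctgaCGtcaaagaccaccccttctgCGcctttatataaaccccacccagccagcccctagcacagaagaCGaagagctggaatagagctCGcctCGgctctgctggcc
Rian (chr12:109603695-109603994, plus strand): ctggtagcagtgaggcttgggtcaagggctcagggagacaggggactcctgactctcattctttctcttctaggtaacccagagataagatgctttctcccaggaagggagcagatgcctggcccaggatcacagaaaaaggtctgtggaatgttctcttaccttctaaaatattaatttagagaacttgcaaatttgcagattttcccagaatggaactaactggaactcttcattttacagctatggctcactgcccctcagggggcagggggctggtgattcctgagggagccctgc
Mirg (chr12:109734731-109735030, plus strand): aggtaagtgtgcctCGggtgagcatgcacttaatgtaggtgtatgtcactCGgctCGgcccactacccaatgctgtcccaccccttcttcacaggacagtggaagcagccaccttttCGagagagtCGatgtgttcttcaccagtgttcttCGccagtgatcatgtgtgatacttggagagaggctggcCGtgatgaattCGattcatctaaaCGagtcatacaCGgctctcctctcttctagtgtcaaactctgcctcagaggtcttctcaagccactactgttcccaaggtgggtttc
The Meg3 window held 13 CG, Mirg 10, Dlk1 9 and Rian 0, against a median of 7 over 32851 promoter windows, of which 5.43% held none. The letters TGCCGC, the motif of the imprint-keeping factor ZFP57, were searched on both strands. They include a CG, so the motif overlaps the marked sites. It occurred 1 time in the Meg3 window and was not found in the windows of Dlk1, Rian and Mirg, while 11.6% of all windows held it. Meg3 has a further RefSeq start, whose window at chr12:109545148-109545447 held 1 CG. The RefSeq start of Mirg lies inside the GENCODE span given above. In all, 9 of the 10 genes had a window in the table.

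Library totals ran from 24840981 to 48825783 counts, and the 10 genes together took 0.390 to 0.800% of them. Levels are CPM, the counts per 1e+06 counts of the library after its total was scaled by edgeR's TMM factor. The smallest count of any of the 10 genes in any library was 476, far above the floor of 3 counts, which stood for 0.0619 to 0.133 CPM. Markers of striatal projection neurons were present (12 of 12 past the filter, summed level 2146 to 5232 CPM), as were those of cortical glutamatergic neurons (9 of 9, 899 to 2498 CPM). Of 16 septal, hypothalamic and thalamic genes 11 passed, and Otp, Sim1, Hcrt, Pmch and Gal did not. In whole tissue, fewer cells of a type and less RNA per cell cannot be told apart.

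One library, m61, stood apart. It had the lowest total, the highest share of mitochondrial counts (7.21%, against 2.90 to 5.15% in the other libraries) and the lowest level of long relative to short transcripts. That last measure is the median log2 deviation of the 10% of genes with the longest exons minus that of the 10% with the shortest, and it was −0.64 in m61 and −0.46 to 0.43 in the other 10. The long noncoding RNAs Miat, Snhg11, Malat1 and Neat1 were also lowest there: Miat was at 68.1 CPM in m61 and 180 to 342 CPM elsewhere, and Snhg11 at 483 and 772 to 1776 CPM. Marker levels set m61 apart as well. The summed level of cortical glutamatergic markers was 2498 CPM there, and the next highest was 1566 CPM in m83. General neuron (10529 CPM), microglia (428 CPM) and vascular markers (333 CPM) were also highest in m61, and those of oligodendrocyte precursors were lowest (239 CPM). The part of library quality or cell content in the levels of m61 was not tested. The main relations of Meg3, Rian and Mirg are therefore also given without m61.

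**Figure D1:**
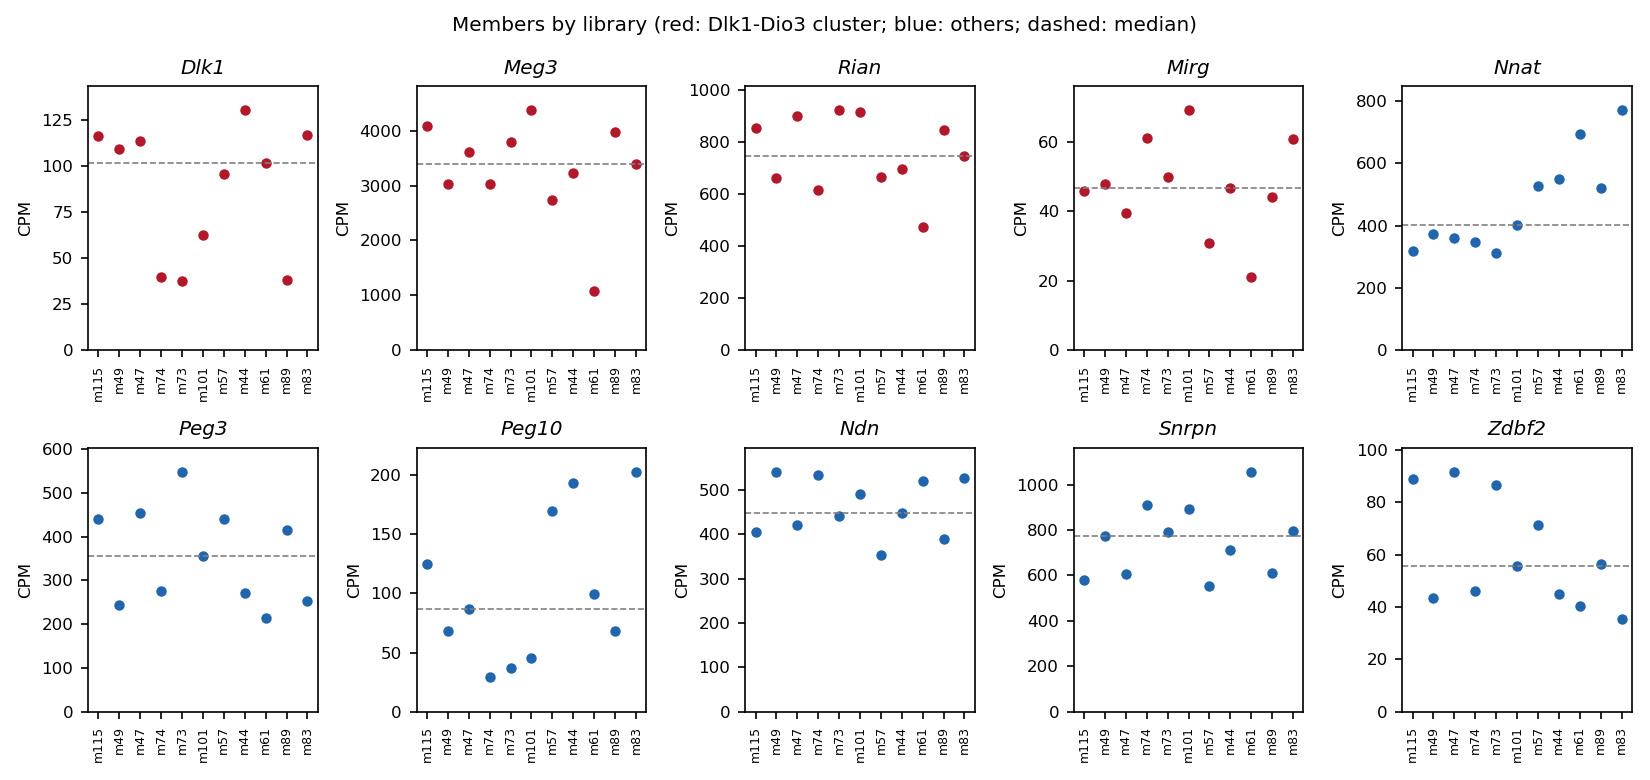
Level of each of the 10 genes in CPM (vertical axis, from 0) in the 11 libraries (horizontal axis, in the order of the numbered library codes), 1 point per library, with the median as a dashed line. Meg3 is lowest in m61 at 1081 CPM, Dlk1 is at 37.3 to 62.4 CPM in 4 libraries and above 95 CPM in the other 7, and Ndn stays between 354 and 542 CPM.

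Meg3 was the most abundant of the 10 genes by CPM, with a median of 3388 CPM, a lowest value of 1081 in m61 and a highest of 4380 in m101. The other 10 libraries lay between 2745 and 4380 CPM, so a single library made most of its range. The log2 of highest over lowest was 2.02 with m61 and 0.67 without it. Over all genes past the filter, 93.7% had a smaller range than Meg3, and so did 99.4% of the 500 genes nearest to it in abundance, m61 included.

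Rian had a median of 744 CPM, with 471 in m61 and 922 in m73 as its extremes. Mirg, the least abundant of the 4, had a median of 46.8 CPM, from 21.1 in m61 to 69.2 in m101. Both were lowest in the same library as Meg3. Their log2 ranges were 0.97 and 1.69, and 0.59 and 1.16 without m61.

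Dlk1, which codes for a transmembrane protein related to Notch ligands, followed another order. Its median was 102 CPM, with a lowest value of 37.3 in m73 and a highest of 130 in m44. Dlk1 was also low in m89 (38.1 CPM), m74 (39.9 CPM) and m101 (62.4 CPM), and reached 95.7 to 130 CPM in the other 7 libraries. In m61, where the 3 noncoding RNAs were lowest, it stood at 102 CPM, its median.

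Among the genes outside the domain, Peg10, a gene derived from a retrotransposon, varied most. It had a median of 87.0 CPM and ran from 29.3 in m74 to 203 in m83, a 6.93-fold span. Its log2 range of 2.77 was larger than that of 98.5% of all genes past the filter and of 100% of the 500 nearest in abundance. Only 5 of the 11 libraries lay within 1.5-fold of its median, against 7 for Dlk1, 10 for Meg3 and 11 for both Ndn and Snrpn.

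Nnat, which codes for a small membrane protein of the endoplasmic reticulum, had a median of 401 CPM, from 313 in m73 to 772 in m83. It was highest in m83 and m61 (694 CPM).

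Peg3, a zinc finger gene, had a median of 355 CPM, from 215 in m61 to 549 in m73. Zdbf2, another zinc finger gene, had a median of 55.8 CPM, from 35.6 in m83 to 91.8 in m47. Snrpn, which codes for a spliceosome protein, had a median of 774 CPM and ran from 555 in m57 to 1057 in m61. Ndn, which codes for necdin, a protein of maturing neurons, varied least, with a median of 449 CPM, 354 in m57 and 542 in m49. Its log2 range of 0.61 was larger than that of 19.3% of all genes. Snrpn shares exons with Snurf, which was listed at 0 in every library, and with Gm38393, so how reads were divided among these genes is uncertain.

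Levels of different genes were set side by side per kilobase of merged exons. On that scale Snrpn came first (median 358 CPM per kb), followed by Nnat (219), Meg3 (187) and Ndn (122). Rian (40.8), Peg3 (26.7), Dlk1 (18.0), Peg10 (13.1), Mirg (6.41) and Zdbf2 (4.41 CPM per kb) formed the lower part of the order. Of the neighbours in this order, Ndn and Rian alone had ranges over the 11 libraries that did not overlap. Rian was above Peg3 in each of the 11 libraries although their ranges overlapped, whereas Nnat was above Meg3 in 7. Merged exons hold every annotated isoform, so a gene with many isoforms can be placed too low.

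Relations over the libraries were measured by Pearson's r and Spearman's rho of log2(CPM + 0.5). For each of the 10 genes the r with every other gene past the filter, 15352 in all, was tested by permuting the libraries, two-sided, and adjusted over all of these genes by Benjamini-Hochberg. A pair of members has an adjusted p from the table of each gene. The larger is given, and a pair was called when both were under 0.05. Of the 45 pairs, 1 of 6 within the domain, 0 of 24 between it and the other genes and 3 of 15 among the others were called. The permutation test of r gave an unadjusted p under 0.05 for 2, 4 and 8 of these pairs, and by rho 0, 0 and 1 were called. Over all genes, the share with an unadjusted p under 0.05 ran from 2.92% with Dlk1 to 38.9% with Peg3. The median r was 0.16 within the domain, −0.16 between and −0.29 among the others, and without m61 it was −0.05, −0.09 and −0.33.

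**Figure D2:**
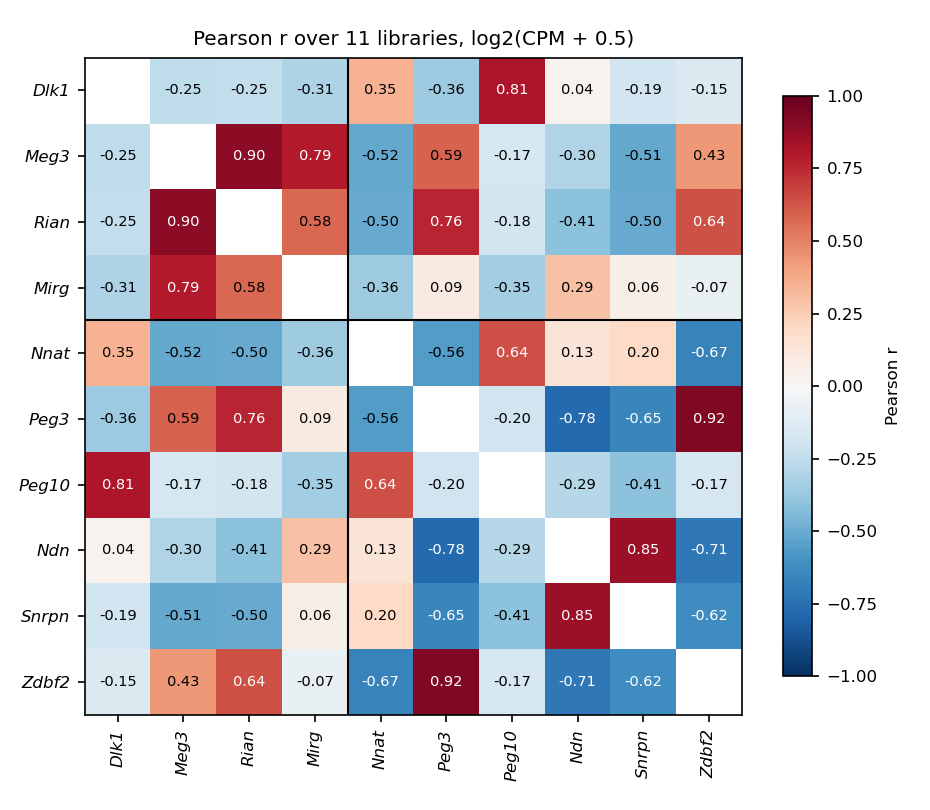
Pearson r over the 11 libraries for every pair of the 10 genes, on a colour scale from −1 (blue) to 1 (red), with lines that set off Dlk1, Meg3, Rian and Mirg. Meg3 and Rian are at 0.90 and Dlk1 is below 0 with each of the 3 noncoding RNAs of its domain, while Peg3 and Zdbf2 (0.92), Ndn and Snrpn (0.85) and Dlk1 and Peg10 (0.81) are the other high pairs.

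Within the domain, Meg3 and Rian varied together. Over 11 libraries r was 0.90 (permutation p = 7e-05, adjusted p = 0.0488) and rho 0.86 (permutation p = 0.00118, adjusted p = 0.168). With m61 left out r was 0.89, and without m61 and m101 it was 0.87. Of the genes tested, 0.143% were called with Meg3 (0.13% positively and 0.013% negatively) and 3.55% with Rian (2.4% positively), and by rho 0 were called with either. The call on r lies close to the threshold and was lost when any library but m57 was left out, while r itself stayed between 0.89 and 0.93.

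The ratio of Rian to Meg3 counts, which does not depend on the scaling of a library, showed the same pair from another side. Rian had 0.203 to 0.249 counts per count of Meg3 in 10 libraries and 0.436 in m61. In that library both RNAs were low, and Meg3 was lower still. The log2 ratio was −1.20 in m61 and between −2.30 and −2.00 elsewhere.

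Mirg followed Meg3 less closely. Their r was 0.79 (permutation p = 0.0109, adjusted p = 0.176) and their rho 0.42 (permutation p = 0.202, adjusted p = 0.614). Without m61 r was 0.40, without m101 0.77, and without m61 and m101 0.17, so this r rests mainly on m61. With Mirg 1.47% of all genes were called, 1.31% positively and 0.163% negatively. For Rian and Mirg r was 0.58 (permutation p = 0.0629, adjusted p = 0.368; rho 0.28, permutation p = 0.400, adjusted p = 0.737) and 0.09 without m61. After a linear fit on the long minus short measure, the residuals of Meg3 and Mirg had an r of 0.98 (permutation test, adjusted p = 0.00415), where 8.48% of all genes were called with Meg3 and 10.1% with Mirg. The same step gave 0.80 for Rian and Mirg (adjusted p = 0.0756) and 0.85 for Meg3 and Rian (adjusted p = 0.0538).

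Dlk1 was not called with any of the 3 noncoding RNAs of its domain. Its r was −0.25 with Meg3 (permutation p = 0.526; rho −0.15), −0.25 with Rian (permutation p = 0.474; rho −0.17) and −0.31 with Mirg (permutation p = 0.356; rho −0.15), each with an adjusted p of 0.9996. The values without m61 were −0.26, −0.19 and −0.29. The ratio of Dlk1 to Meg3 counts ran from −6.71 to −3.41 on the log2 scale, and that of Mirg to Meg3 from −6.51 to −5.63.

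Dlk1 was instead closest, among the members, to Peg10 on chromosome 6. Their r was 0.81 (permutation p = 0.00351, adjusted p = 0.9996; rho 0.83, permutation p = 0.00274, adjusted p = 0.9997), 0.81 without m61 and 0.84 without m73 and m89. Peg10 ranked 30 by r among the 15352 genes tested with Dlk1. Neither gene had a called partner anywhere: 0% of genes were called with Dlk1 and 0% with Peg10, by r as by rho. An unadjusted permutation p under 0.05 was reached by 2.92% of genes with Dlk1 and 5.13% with Peg10.

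Rtl1, Dio3 and its neighbour Dio3os, also of the domain, had a higher r with Dlk1 than with Meg3; the difference was not tested. Dio3, the deiodinase that inactivates thyroid hormone, had a median of 4.17 CPM, from 1.47 in m74 to 7.44 in m44. It stood at 2.65 CPM in m73 and 2.63 CPM in m89, where Dlk1 was lowest, and at 7.09 CPM in m83. Its r with Dlk1 was 0.82 (permutation p = 0.00118, adjusted p = 0.975; rho 0.82, permutation p = 0.00333), 0.85 without m73 and m89, and its r with Meg3 was −0.32 (permutation p = 0.352; rho −0.39). Dio3os, the noncoding RNA that starts next to Dio3 on the other strand, had an r of 0.89 with Dlk1 (permutation p = 0.00012, adjusted p = 0.806; rho 0.92, permutation p = 0.00017), the fifth highest of all genes, on only 21 to 68 counts per library.

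Rtl1, a retrotransposon-derived gene between Meg3 and Rian, reached 0.975 to 5.79 CPM and had an r of 0.69 with Dlk1 (permutation p = 0.0237, adjusted p = 0.9996; rho 0.68), which was 0.92 without m61. With Meg3 its r was 0.31 and −0.49 without m61. Dio3 was also the gene of the domain closest to Peg10 (r = 0.93, permutation p = 5e-05, adjusted p = 0.230; rho 0.93, permutation p = 0.00015), the fourth highest of all genes. None of these pairs was called, and without a stated strand setting the counts of Rtl1, Dio3 and Dio3os may hold reads of a partner on the other strand.

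**Figure D3:**
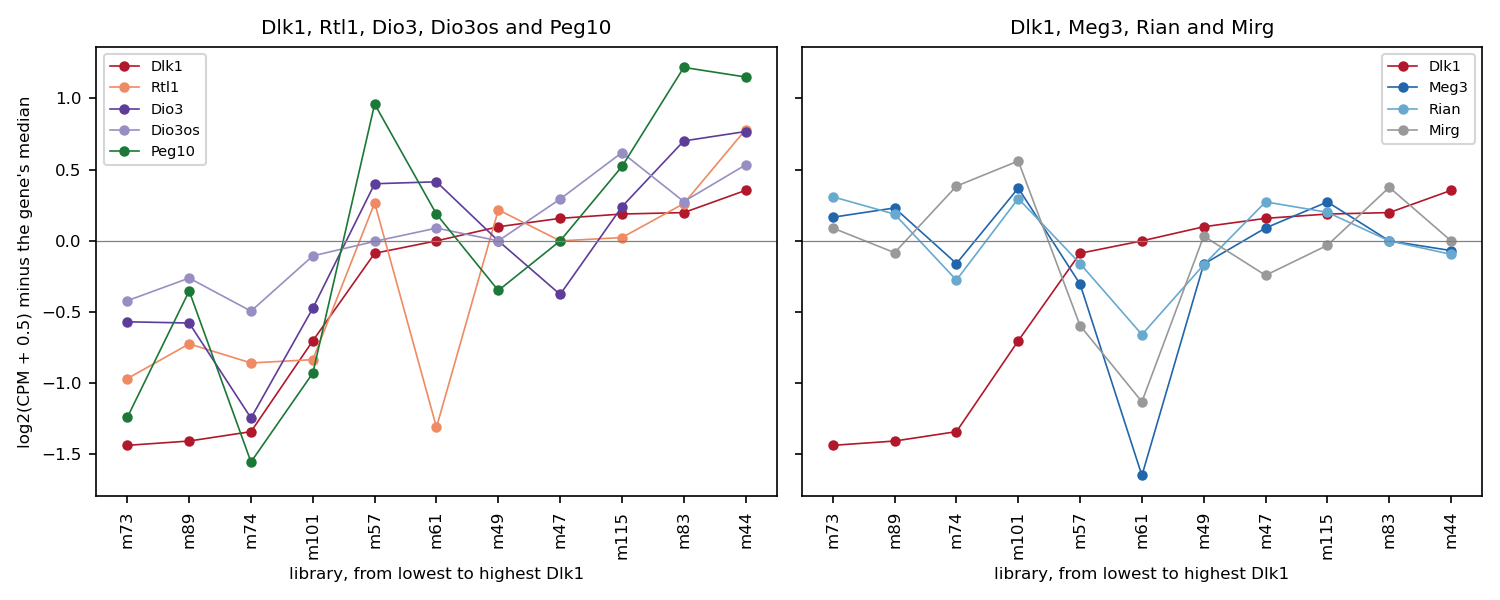
Deviation of log2(CPM + 0.5) from each gene's median (vertical axis) in the 11 libraries, ordered from lowest to highest Dlk1 (horizontal axis), 1 point per library, lines only to guide the eye. Left, Dlk1 with Rtl1, Dio3, Dio3os and Peg10, with m73, m89, m74 and m101 at the left below every gene's median; right, Dlk1 with Meg3, Rian and Mirg, whose lowest point is m61.

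Of the genes past the filter within 1 Mb of the span from Dlk1 to Mirg, 22 were not members. With Dlk1, Meg3 and Mirg 0 of the 22 were called by the permutation test. An unadjusted p under 0.05 was reached by 3, 4 and 3 of them, against 2.92, 24.2 and 14.8% of all genes. With Rian 1 was called, negatively: Slc25a47 (r = −0.84, permutation p = 0.00128, adjusted p = 0.0472, rho −0.77), against 1.15% of all genes called negatively with Rian. The median r of the 22 was −0.02 with Dlk1 and 0.01 with Meg3. Begain, Wdr25 and Wars, on the Dlk1 side, and Ppp2r5c, beyond Dio3, had an r with Meg3 of 0.27, −0.10, −0.38 and −0.76. In the same order their rho was 0.03, −0.15, −0.75 and −0.38. Ppp2r5c was highest in m61 (251 CPM, next 213 CPM in m49), the library where Meg3 was lowest.

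Outside the domain, Peg3 and Zdbf2 formed the closest pair. Their r was 0.92 (permutation p = 0.00011, adjusted p = 0.00605; rho 0.95, permutation p = 7e-05, adjusted p = 0.00640), 0.93 without m61 and 0.92 without m61 and m73. Ndn and Snrpn, which share a domain on chromosome 7, followed with an r of 0.85 (permutation p = 0.00109, adjusted p = 0.0280; rho 0.77, permutation p = 0.00723, adjusted p = 0.0548), 0.88 without m57 and m49. Peg3 and Ndn ran in opposite directions (r = −0.78, permutation p = 0.00744, adjusted p = 0.0473; rho −0.72, permutation p = 0.0162, adjusted p = 0.0750), with −0.86 without m61 and m73.

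These calls stand against wide backgrounds. Of the 15352 genes tested, 24.2% were called with Peg3, 22.9% with Zdbf2, 16.8% with Ndn (7.65% positively) and 15.8% with Snrpn (9.97% positively and 5.86% negatively), so a call with one of these genes was common. By r, Zdbf2 ranked 411 among the genes tested with Peg3, and Snrpn 266 among those tested with Ndn. The call of Peg3 and Ndn was lost when any library but m73 was left out, and that of Ndn and Snrpn without m115, m44, m74 or m57. Of all genes, 0 were called with Ndn without m44 and 0.701% without m57. On library totals without scaling the r of Peg3 and Ndn was −0.58 (permutation test, adjusted p = 0.194).

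**Figure D4:**
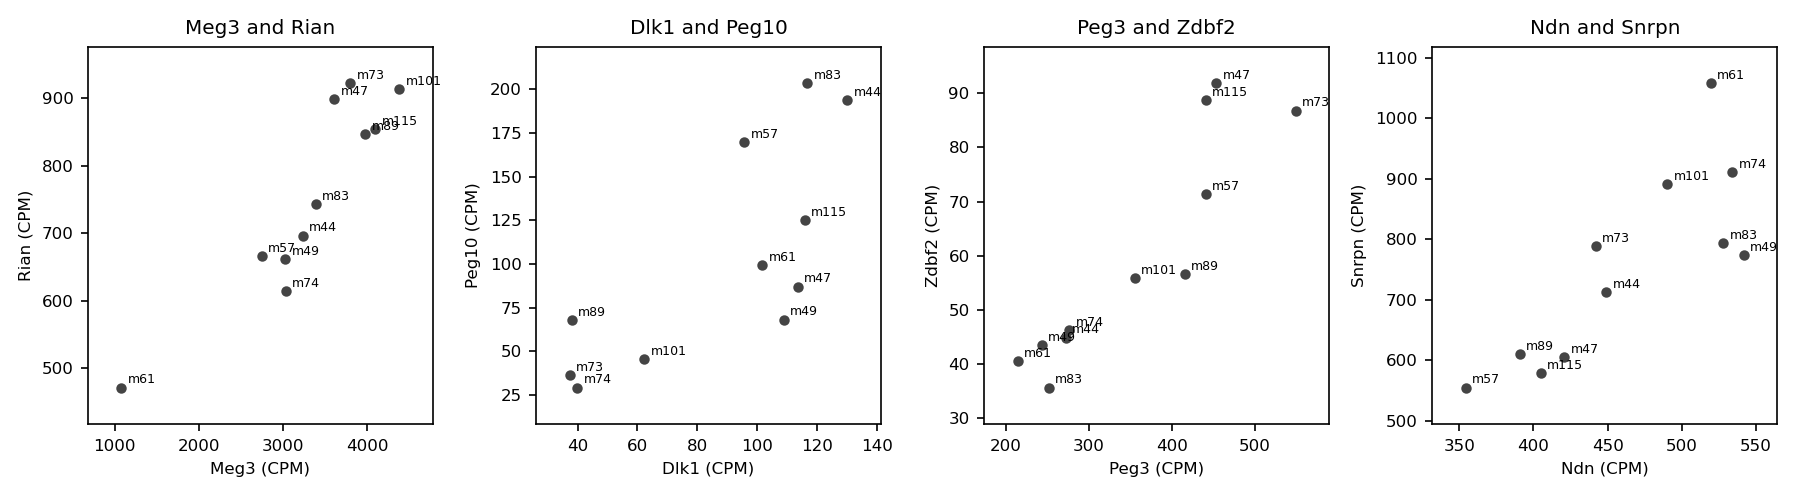
Levels in CPM of 4 pairs of the 10 genes, 1 labelled point per library. Meg3 and Rian (r = 0.90) show m61 far from the rest, Dlk1 and Peg10 (r = 0.81) show m73, m74, m89 and m101 at low Dlk1, and Peg3 with Zdbf2 (r = 0.92) and Ndn with Snrpn (r = 0.85) rise together.

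The same 4 genes moved with the level of long relative to short transcripts. Peg3 had an r of 0.87 with that measure (permutation p = 0.00155, adjusted p = 0.0104; rho 0.81) and Zdbf2 of 0.87 (permutation p = 0.00133, adjusted p = 0.00947; rho 0.85). Snrpn had an r of −0.90 (permutation p = 0.00031, adjusted p = 0.00405; rho −0.92) and Ndn of −0.87 (permutation p = 0.00107, adjusted p = 0.00837; rho −0.82). Of all genes past the filter 31.3% were called with the measure. Peg3 (13324 bases of merged exons) and Zdbf2 (12659) are longer than Ndn (3694) and Snrpn (2159). The longest members, Rian (18234) and Meg3 (18089), and the shortest, Nnat (1829), were not called with the measure.

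After a linear fit on the measure the residual r was 0.70 for Peg3 and Zdbf2 (permutation test, adjusted p = 0.201). It was 0.32 for Ndn and Snrpn (adjusted p = 0.740) and −0.10 for Peg3 and Ndn (adjusted p = 0.923). None of the 3 was called. Of all genes, 0 were called with Ndn, Snrpn or Zdbf2 after this fit, and 1.61% with Peg3. The calls with Ndn, Snrpn and Zdbf2 given below were thus lost after it. For Dlk1 and Peg10 the residual r was 0.81, as before the fit. Dlk1 itself had an r of −0.01 with the measure and Peg10 of 0.11. Over the 11 libraries Meg3 (0.54), Rian (0.63), Mirg (−0.06) and Nnat (−0.50) were not called. Without m61 their values were 0.15, 0.42, −0.82 and −0.33, of which that of Mirg was called (permutation test, adjusted p = 0.0153). Over the leave-outs 4 to 6 of the 10 genes were called: Meg3 and Rian were added without m57, and Rian without m101. None of the 10 genes was called with the mitochondrial share or the total count, with which 0.274% and 0% of genes were called by the same permutation test.

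**Figure D5:**
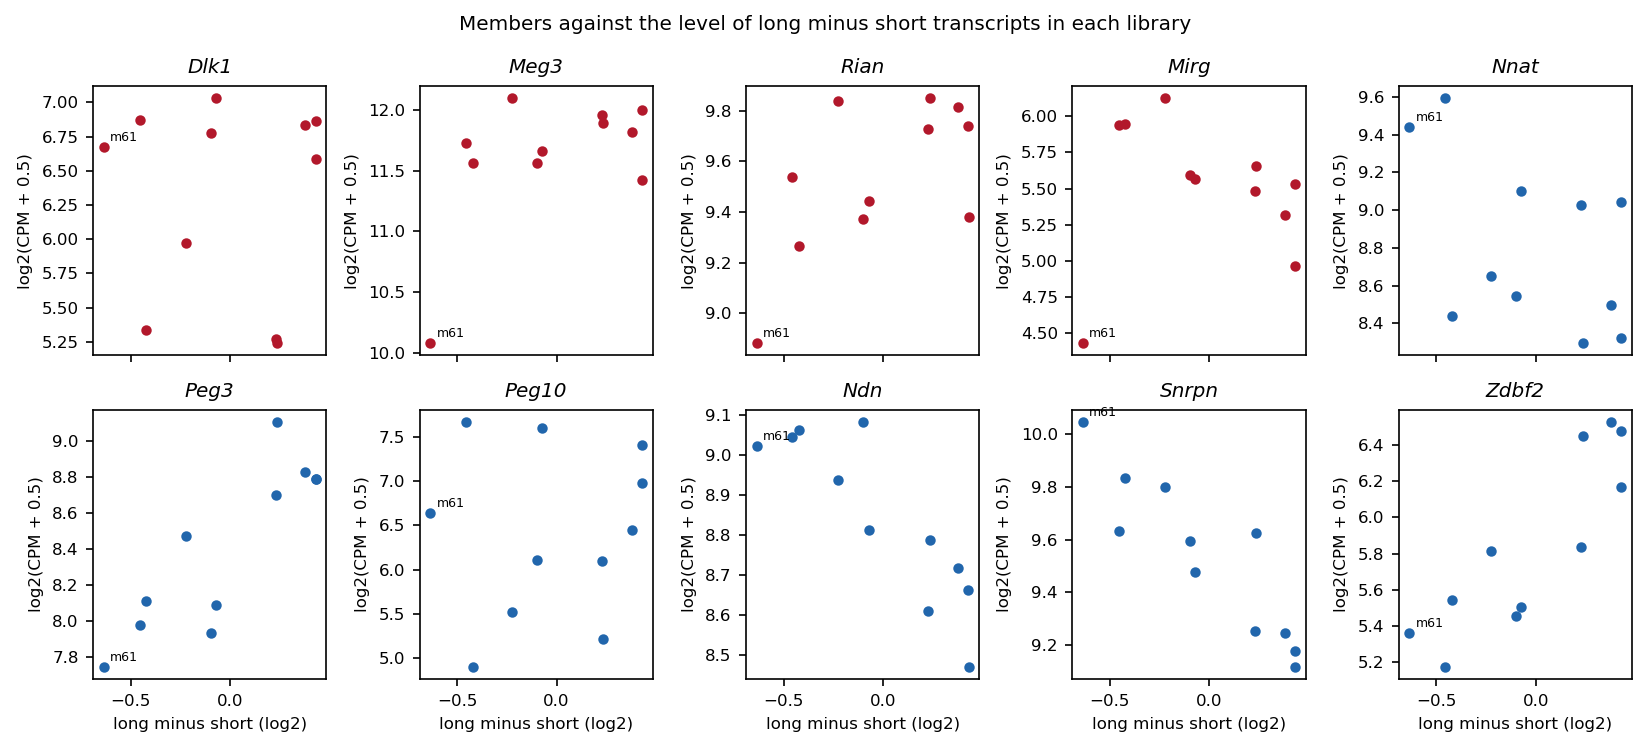
Log2(CPM + 0.5) of each of the 10 genes (vertical axis) against the long minus short transcript measure of the library in log2 units (horizontal axis), 1 point per library, m61 labelled. Peg3 and Zdbf2 rise and Ndn and Snrpn fall along it, Dlk1 and Peg10 show no slope, and Mirg falls along it in all libraries but m61.

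The relations of Mirg depended on m61. Without that library its r was 0.88 with Snrpn (permutation test, adjusted p = 0.0298, called), 0.80 with Ndn and −0.82 with the long minus short measure, where with it the values were 0.06, 0.29 and −0.06.

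The genes most like each member in pattern were named by the highest r. For Meg3 they were Ints13 (0.99, a subunit of the Integrator complex), Gm16973 (0.98) and Leng8 (0.98), and each kept an r of 0.89 to 0.93 without m61. Rian was nearest to Orc2 (0.97, an origin recognition subunit), Gm47140 (0.97, at only 0.355 to 3.19 CPM) and Srsf6 (0.96, a splicing factor). Mirg was nearest to Zdhhc1 (0.99), BC037034 (0.98) and A230050P20Rik (0.98). Without m61 these values were 0.91 to 0.95 for Rian and 0.95 to 0.97 for Mirg. Rian ranked 260 among the genes tested with Meg3, so many genes outside the domain had a higher r with Meg3 than Rian did.

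Dlk1 was nearest to Vat1l (0.96), Sstr5 (0.94, a somatostatin receptor at only 0.415 to 2.42 CPM) and Spata13 (0.91), none of them called. Peg10 was nearest to Dpy19l3 (0.93), Myo3b (0.93) and again Spata13 (0.93). Spata13, a guanine nucleotide exchange factor, was thus among the 3 nearest genes of both.

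Nnat was called with genes of striatal projection neurons by r. Its nearest genes were Cd52 (0.97), the neuropeptide gene Cartpt (0.97) and Penk (0.96), the enkephalin precursor. Each was called by r (permutation test, adjusted p = 0.0341), where 0.293% of all genes were (0.228% positively and 0.0651% negatively). Cd52 was low, at 0.548 to 2.02 CPM, and is not among the markers of projection neurons used here. No gene was called with Nnat by rho, with no filter on low genes, or when any library but m49, m47 or m74 was left out. Of the 12 markers of these neurons, 2 were called with Nnat, Ppp1r1b and Penk, both positively, and the median r of the 12 was 0.77, against −0.07 over all genes. The median was 0.76 for 7 markers of GABAergic interneurons and 0.72 for 8 of mature oligodendrocytes. The part of any of these cell types in the level of Nnat was not tested.

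The nearest genes of Peg3 were Slc4a7 (0.99), Lca5 (0.99) and Ogt (0.99), and those of Zdbf2 were Fam126a (0.99), Xpo4 (0.99) and Nap1l3 (0.98). Ndn was nearest to Gmppb, Capns1 and Snx17 (0.97 each), and Snrpn to Pebp1, Tmem147 and Ostc (0.98 each).

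None of the cell type lists had a called member with Dlk1 or Peg10. By an unadjusted permutation p under 0.05, 4 of 5 ependymal and choroid genes passed with Dlk1, against 2.92% of all genes. With Peg10, 10 of 12 projection neuron genes passed, against 5.13%. The median r with Dlk1 was 0.75 for 5 genes of ependyma and choroid plexus past the filter, 0.50 for 9 other genes of the ventral striatum and 0.41 for 11 septal and diencephalic genes. The summed level of the ependyma and choroid list ran from 19.6 CPM in m73, the library of lowest Dlk1, to 64.6 CPM in m115, and Tmem212, Ttr and Kcnj13 were below the filter. With Peg10 the median was 0.76 for 4 cholinergic markers, 0.69 for projection neurons and 0.63 for the ventral striatum. The ventral striatum list holds Dlk1 and Peg10 themselves, so its median for each counts the other. The part of these cell types in the levels of Dlk1 and Peg10 was not tested.

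Microglia markers had a negative median r with Rian (−0.80), Peg3 (−0.75), Meg3 (−0.65) and Zdbf2 (−0.62). Of 7, Tmem119 was called negatively with Rian, against 1.15% of all genes, and 0 with Meg3 by the permutation test. With each, 6 had an unadjusted p under 0.05, against 28.1% of all genes with Rian and 24.2% with Meg3. C1qa, C1qb, C1qc and Tmem119 were called negatively with Peg3, against 9.2%, and the 3 complement genes with Zdbf2, against 8.94%. The summed level of the 7 markers ran from 254 CPM in m47 to 428 CPM in m61, where Meg3, Rian and Peg3 were lowest. The relations of these markers are not given without m61. Of 8 general neuron markers, Tubb3, Eno2 and Syp were called negatively with Peg3, and Stmn2, Tubb3 and Syp positively with Snrpn, against 9.97%. The part of cell content in these relations was not tested.

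Of the genes next to the other members, Zim1 beside Peg3 and Adam23 beside Zdbf2 were called with their neighbour. These calls were not particular to the neighbour. Zim1 was also called with Zdbf2 (r = 0.76) and Snrpn (−0.76), and Adam23 with Peg3 (0.94) and Ndn (−0.90). By r, Zim1 ranked 1649 among the genes tested with Peg3, and Adam23 ranked 496 among those tested with Zdbf2. Nnat lies within an intron of Blcap on the opposite strand, and their r was 0.11 (permutation p = 0.744, adjusted p = 0.872; rho 0.15). Peg10 and its neighbour Sgce had an r of 0.60 (permutation p = 0.0540, adjusted p = 0.983; rho 0.58). For Peg3, Zim1 was called (r = 0.79, permutation p = 0.00132, adjusted p = 0.0138; rho 0.88, permutation p = 0.0007) and Usp29 was not (0.28). Magel2 (1.24 to 12.4 CPM) and Mkrn3 (0.271 to 1.11 CPM), neighbours of Ndn, had r of −0.17 and −0.18 with it.

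The domain of Snrpn and Ndn also holds Snhg14, the long noncoding RNA that continues from Snrpn. Ube3a, the ubiquitin ligase gene silenced by Snhg14 on the paternal copy in neurons, lies there too. Snhg14 and Ube3a had an r of −0.50 and −0.66 with Snrpn, neither called, and of −0.75 and −0.85 with Ndn. Ube3a was called with Ndn (permutation test, adjusted p = 0.0333), against 9.11% of all genes called negatively. That call was lost without m44, as no gene was called with Ndn there. Snhg14 and Ube3a were each also called with Peg3 (r = 0.90, permutation test, adjusted p = 0.00719, and r = 0.88, adjusted p = 0.0179). Beside Zdbf2, Adam23 was called with it (r = 0.90, permutation test, adjusted p = 0.00944), while Gpr1 (0.332 to 1.60 CPM) had an r of 0.07. Across the 10 neighbour genes past the filter, 4 were called positively with Peg3, where 15% of all genes were, and 4 with Zdbf2, where 14% were. Snurf and Peg12 were below the filter.

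Of 35 further genes known or reported as imprinted, 31 passed the filter, and H19, Kcnq1, Phlda2 and Tspan32 did not. The most abundant were Gnas (median 1275 CPM), Nap1l5 (423), Rasgrf1 (367), Ppp1r9a (298), Peg13 (295), Cd81 (215), Inpp5f (175) and Herc3 (134). With Dlk1, Meg3, Rian, Mirg, Nnat and Peg10 0 of the 31 were called by the permutation test. In that order 3, 4, 5, 2, 3 and 3 had an unadjusted p under 0.05. Of all genes 2.92, 24.2, 28.1, 14.8, 15.2 and 5.13% did so. With Peg3 2 of the 31 were called positively, against 15% of all genes, and with Zdbf2 4, against 14%. Plagl1, a zinc finger regulator of other imprinted genes, and Grb10, a growth factor receptor adaptor, were among both, and Zdbf2 added Igf2r and Herc3. Cd81 was called negatively with Peg3, against 9.2%. With Snrpn 3 were called positively (Gnas, Commd1 and Cd81), against 9.97%, and 3 negatively (Ago2, Ppp1r9a and Cobl), against 5.86%. Gnas, which codes for the stimulatory G protein alpha subunit, had an r of 0.97 with Snrpn (permutation p = 2e-05, adjusted p = 0.00304; rho 0.96). With Ndn the same 3 were called positively, against 7.65%, and Plagl1, Kcnk9, Ago2, Igf2r and Ppp1r9a negatively, against 9.11%. Whether these shares differ from those of all genes was not tested. After the fit on the long minus short measure 0 genes were called with Ndn, Snrpn or Zdbf2, so their calls here were lost. Over the 31 genes the median r lay between −0.14 (Mirg) and 0.12 (Dlk1), against medians of −0.09 to 0.03 over all genes.

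Of 14 genes that read, write or keep imprints, all passed the filter and 0 were called with Meg3 by the permutation test. An unadjusted p under 0.05 was reached by 6 of them, against 24.2% of all genes. The highest r with Meg3 was that of Zfp57 (0.77) and the lowest that of Trim28 (0.05). With Peg3, Dnmt3a, Zfp445, Smchd1, Tet1 and Tet2 were called positively, against 15% of all genes. With Ndn, Dnmt3a, Zfp445, Smchd1, Tet1 and Tet3 were called negatively, against 9.11%. These calls were not particular to Peg3 and Ndn. With Zdbf2 8 of the 14 were called positively, against 14%, and with Snrpn 5 negatively, against 5.86%. After the linear fit on the long minus short measure 0 genes were called with Ndn, Snrpn or Zdbf2, so their calls here were lost. With Peg3 1.61% of all genes were called after it. The part of transcript length in these relations was not tested further.

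Meg3 also crosses the group of abundant neuronal noncoding RNAs. Of 9 such genes, Snhg11 was called with Meg3 (r = 0.87, permutation p = 6e-05, adjusted p = 0.0488; rho 0.89; 0.86 without m61) and with Rian (0.89, permutation p = 0.00026, adjusted p = 0.0353; 0.78 without m61). Miat had an r of 0.94 with Meg3 (permutation p = 0.00207, adjusted p = 0.0842; rho 0.75), which was 0.62 without m61, and Malat1 one of 0.59, which was 0.16 without m61. No gene was called with Meg3 when any library but m74 or m57 was left out, nor with no filter on low genes, so the call of Snhg11 was lost there. With Rian no gene was called without m115, m49, m47, m73, m44 or m61, nor with no filter.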

How the data were processed

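The deposited table held whole-number read counts per Ensembl gene in 11 libraries, which the authors made, per the submitters' processing notes, on mm10 with HTSeq 0.6.1 after TopHat2 2.0.14, which runs Bowtie2 2.1.0, and bcl2fastq 2.17.1.14. Which annotation release was counted, and with what strand setting, is not given in the sources used here. Per the labels' protocols the libraries were stranded and made from 200 ng of RNA from punches of frozen sections. Of 52550 identifiers, 52403 matched GENCODE M21. The labels name no genotype, so no library was put in a group and no groups were compared.

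Library sizes were scaled with edgeR 4.0.16 (R 4.3.3), and log2(CPM + 0.5) was used throughout. The filter asked for a median count of 10 or more and for 1 CPM or more in 3 libraries, which left 15353 genes. Correlations were tested with 100000 permutations of the libraries, two-sided, smallest possible p 1e-05, and adjusted over all genes. The script for this test was checked on simulated data. P-values measure only the spread between these libraries, and differing genotypes within them cannot be told apart from other sources of it. Intervals and floors cover counting error only. The 3 nearest genes by r were named for each member. Members and gene lists were chosen with earlier results of these data known. Alternatives were DESeq2 1.42.0 size factors, library totals, a pseudocount of 0.05, no filter, Spearman's rho, residuals on the transcript length measure, and leaving out each library. The relations of 1 listed gene are not reported here.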

Additional observations from a re-analysis of the deposited data

How the results depend on the processing

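The number of called pairs within the Dlk1-Dio3 domain went from 1 to 0 with no filter on low genes and with Spearman's rho, and leaving out 1 library at a time gave 0 to 1. On residuals of the transcript length measure 1 pair was called, Meg3 with Mirg in place of Meg3 with Rian. Between the domain and the other members it was 0 in all of these settings except 2 leave-outs, with a range of 0 to 1: Mirg and Snrpn were called without m61 and Rian and Peg3 without m57. Among the other members the count of 3 became 1 with no filter, 1 with Spearman's rho and 0 on residuals of the transcript length measure, with 1 to 4 over the leave-outs. Removing the filter adjusts over more genes. The cause of the other changes was not tested. Median levels and the ratios within the domain moved by less than the spread between libraries under each alternative run, and no r reversed its sign with a call. No paired analysis was possible because the labels put the libraries in no groups and replicate numbers were given in accession order only.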

Other observations

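Nnat was lower in the libraries numbered 1 to 7 in their descriptions than in those numbered 9 to 14, with no order within either. The labels do not explain these numbers, and the design text leaves out a sample 10 while a library here carries that number, so they may differ from the study's sample numbers. Library m115 (number 1) had 319 CPM, m49 (2) 373, m47 (3) 361, m74 (5) 347, m73 (6) 313 and m101 (7) 401. Library m57 (9) had 526 CPM, m44 (10) 549, m61 (12) 694, m89 (13) 522 and m83 (14) 772. The summed level of the 12 markers of striatal projection neurons lay between 2146 and 2703 CPM in the first 6 of these libraries and between 4396 and 5232 CPM in the last 5. This was noticed after the values were seen and carries no test. Of all genes past the filter 2.32% did not overlap between the same libraries, and no other of the 10 imprinted genes did so.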
